A study of Mus musculus with 6 samples.

Results

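The genes described here copy the genome in S phase. They are 44 genes of DNA replication, chosen by name from a table of 19162 genes: the replicative helicase and the factors that load it, the polymerases, the sliding clamp with its loader, the enzymes that supply nucleotides, and the E2F factors and E-type cyclins that switch the set on. All 44 had counts high enough to be tested. They were measured by RNA sequencing of bone marrow from C57BL/6J mice after 4 days of culture. All cultures received 40 ng/mL of GM-CSF, a growth factor under which myeloid progenitors divide and mature. The KCl group also had 34.7 mM KCl added, and the control group had no addition. Each group had 3 libraries, numbered 1, 2 and 4. The series calls the cells bone marrow-derived myeloid-derived suppressor cells, immature myeloid cells that restrain T cells, and asks how they respond to high potassium. Whether the numbered libraries stem from different mice or cultures is not in the labels, and p-values here reflect only the spread between the samples, possibly a technical one.

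Before a cell divides, the origin recognition complex, CDC6 and CDT1 place the ring-shaped MCM2-7 helicase on DNA in G1. CDC45 and the GINS complex then join the ring to make the active helicase, and polymerases alpha, delta and epsilon copy the opened strands. E2F transcription factors, held back by RB until cyclin D kinases act, raise most of these genes together at the entry to S phase. In cultures of bone marrow with GM-CSF, the dividing cells are mainly myeloid progenitors, and mature granulocytes and macrophages largely stop dividing.

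Promoters are shown because E2F factors are known to control many genes of this set. Windows from 250 bases before to 50 after a gene's start were listed by RefSeq (GRCm38.p6) for 36 of the 44 genes. The letters TTTCCCGC or TTTGGCGC, which are written forms of the E2F motif, were searched on both strands. They occurred in 12 of the 36 members (33.3%), against 486 of 27025 genes with a window (1.8%). The 14 matches in the members began between 165 bases before and 39 bases after the start used for the window, and 0 of them overlapped another. A match describes letters in the window and does not show binding. Capitals mark the motif, on the gene's own strand or, as GCGGGAAA or GCGCCAAA, its reverse complement. The sites in 10 of the members, with 10 bases on each side where the window allows, were these.
Cdc6, chr11:98908003-98908030 (plus strand): ccggtggagaGCGGGAAAtcgcctgggg
Cdt1, chr8:122568037-122568064 (plus strand): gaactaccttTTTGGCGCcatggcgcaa
Gins3, chr8:95633508-95633535 (plus strand): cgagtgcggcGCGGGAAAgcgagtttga
Mcm3, chr1:20820263-20820284 (minus strand): cttgggaagtTTTGGCGCcaag
Mcm3, chr1:20820276-20820303 (minus strand): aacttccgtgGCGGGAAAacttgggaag
Mcm5, chr8:75109350-75109377 (plus strand): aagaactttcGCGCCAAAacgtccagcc
Mcm6, chr1:128359735-128359762 (minus strand): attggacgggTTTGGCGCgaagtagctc
Mcm6, chr1:128359798-128359825 (minus strand): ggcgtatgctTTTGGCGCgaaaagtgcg
Mcm7, chr5:138172031-138172058 (minus strand): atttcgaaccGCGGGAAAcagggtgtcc
Pola1, chrX:93632276-93632303 (minus strand): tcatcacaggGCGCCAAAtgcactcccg
Pold1, chr7:44548766-44548786 (minus strand): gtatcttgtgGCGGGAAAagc
Rfc3, chr5:151651191-151651218 (minus strand): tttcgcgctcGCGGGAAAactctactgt

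Whole windows are shown for E2f2 and Pole2, which have the smallest p-values after E2f1 of the members that rose in KCl, and each printed window holds 1 match. A second window listed for E2f2 (chr4:136180532-136180831, plus strand) holds none and lies inside the gene, and the printed one lies wholly upstream of the gene's start in GENCODE M21. The window listed for E2f1 (chr2:154569377-154569676, minus strand) holds neither set of letters and lies inside the gene as GENCODE M21 draws it, so it does not cover the sequence upstream and is not printed. The sites of Cdc6, Gins3 and Mcm7, given above, begin before the start used for the window. They likewise lie inside the gene as GENCODE M21 draws it, downstream of its start there. The sequence of Mcm5, given above, belongs to the gene with the largest difference of the MCM subunits in replicates 1 and 2.
E2f2 promoter, chr4:136172024-136172323 (plus strand): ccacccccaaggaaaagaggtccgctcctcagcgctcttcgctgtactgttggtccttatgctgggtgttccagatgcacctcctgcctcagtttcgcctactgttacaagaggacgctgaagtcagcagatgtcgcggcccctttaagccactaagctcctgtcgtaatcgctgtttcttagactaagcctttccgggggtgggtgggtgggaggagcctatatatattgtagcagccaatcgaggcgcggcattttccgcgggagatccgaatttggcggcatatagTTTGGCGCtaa
Pole2 promoter, chr12:69228141-69228440 (minus strand): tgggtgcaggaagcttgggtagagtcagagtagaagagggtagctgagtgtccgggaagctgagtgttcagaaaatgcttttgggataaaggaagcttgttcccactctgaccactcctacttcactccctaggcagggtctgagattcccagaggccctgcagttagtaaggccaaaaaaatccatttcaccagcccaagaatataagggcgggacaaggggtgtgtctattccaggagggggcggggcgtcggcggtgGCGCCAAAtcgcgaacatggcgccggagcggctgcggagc

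Library totals ran from 17814232 to 18933948 counts in KCl and from 14118724 to 21694831 in control. The labelled myeloid identity was present: Ptprc, Itgam, Csf1r, Csf2ra and Lyz2 were all measured, with a summed level of 11680 to 14680 CPM (counts scaled to library size, with TMM factors) in KCl and 6822 to 8402 CPM in control. Markers of T cells, B cells, red cells, platelets, fibroblasts and endothelium (Cd3e, Cd79a, Hbb-bs, Pf4, Col1a1 and Cdh5) summed to 48.2 to 52.4 CPM in KCl and 31.0 to 45.2 CPM in control. Of these, Cd3e and Hbb-bs were too low to be tested, and Cd3e had 0 counts in control 1. Replicate 4 is given apart in what follows, because its libraries were not independent of the other 4. For 43 members (mean count 300 or more), the log2 ratio of the mean of KCl 4 and control 4 to the mean of KCl 1, KCl 2, control 1 and control 2 had an SD of 0.0072, where counting noise alone gives 0.0408. Over all 8231 genes with such counts the SD was 0.0106, where counting noise gives 0.0439. The dependence was thus not particular to the members. Any p-value computed with all 6 libraries can thus be too small.

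Per gene length, most members were among the better expressed genes. Their mean FPKM (fragments scaled to gene length and library size, as the authors deposited it) over 6 libraries ran from 3.28 for Orc1, a subunit of the origin recognition complex, to 79.9 for Rrm1, the large subunit of ribonucleotide reductase. The median over the members was 12.4 FPKM, against 5.09 FPKM over the 13326 genes tested. By role the median was 21.8 FPKM for helicase and loading genes, 8.86 for polymerases and primase, 11.8 for clamp and joining genes, 22 for nucleotide supply and 20.3 for control genes. The highest single levels were those of Rrm1, Rrm2 (its small subunit, 62.1 FPKM) and Mcm5 (73.9 FPKM). The helicase subunits form a ring with 1 copy of each, but their messages differed in deposited FPKM. Across the 6 libraries Mcm5 ran from 58.9 to 88.3 FPKM, Mcm4 from 43.7 to 53.5, Mcm6 from 39.3 to 52.0, Mcm3 from 28.8 to 40.7, Mcm7 from 21.3 to 28.7 and Mcm2 from 15.6 to 23.0. Mcm5 lay above every library of the other subunits, the ranges of Mcm4 and Mcm6 overlapped, and so did those of Mcm6 and Mcm3 and of Mcm7 and Mcm2. This order depends on the gene lengths behind the FPKM, which the sources used here do not give. In control, for example, Mcm5 and Mcm3 averaged 268 and 242 CPM, with exons of 3993 and 3752 bases in GENCODE M21. Tipin, a fork protection protein, and Pcna, the sliding clamp, were also high, at 49.0 and 53.3 FPKM. Cdc6, a helicase loading factor, and Mcm10, which acts when the helicase starts, were near the low end at 5.10 and 5.09 FPKM.

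**Figure D1:**
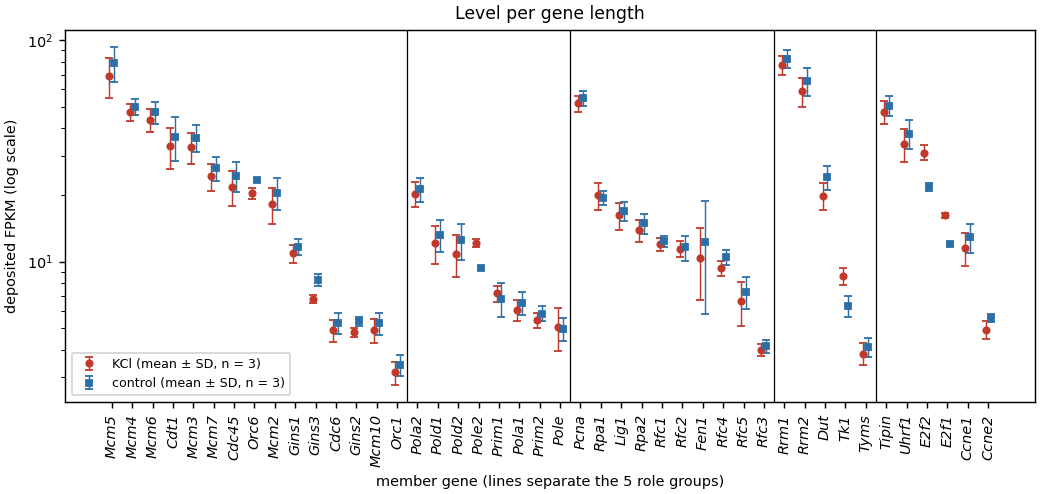
Deposited FPKM of each member (log scale) in KCl and control, as mean ± SD of 3 libraries per group, ordered within 5 role groups: helicase and loading, polymerases and primase, clamp and joining, nucleotide supply, control genes. Rrm1 (79.9 FPKM over 6 libraries) is highest and Orc1 (3.28 FPKM) lowest, and for E2f1, E2f2, Tk1 and Pole2 the KCl point lies above the control point.

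With all 6 libraries, 4 members rose in KCl, 1 fell and 39 did not pass, in the quasi-likelihood test of edgeR (Benjamini-Hochberg adjusted p under 0.05, over all genes). Across all 13326 genes, 22.9% passed, 12.4% higher and 10.5% lower in KCl, so the members' 5 of 44 is below the share over all genes. Those that rose were E2f1, E2f2, Tk1 and Pole2, and Gins3 fell. The KCl and control libraries did not overlap for 7 of 44 members (15.9%), these 5 with Gins2 and Orc6, against 38.5% of all genes. In bulk samples, a difference in the share of cells in S phase and a difference in these RNAs per cell cannot be told apart. Without replicate 4, 0 of 44 passed in edgeR and in limma-voom, where 0.458% (0.333% higher, 0.126% lower) and 0.362% (0.281% higher, 0.0813% lower) of 13525 genes did, and 26 and 24 members (59.1% and 54.5%) had an unadjusted p under 0.05, against 29.8% of all genes in each. DESeq2 on the same 4 libraries called 8 members, 2 higher and 6 lower, against 8.37% of all genes (5.7% higher, 2.67% lower).

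E2f1 and E2f2, which encode E2F activators of the S-phase programme, were higher in KCl. E2f1 had 77.8 and 77.5 CPM in KCl 1 and 2 and 74.0 CPM in KCl 4, against 55.4 and 54.7 CPM in control 1 and 2 and 57.5 CPM in control 4. The KCl libraries all lay above the control libraries, and within each group the spread was small. Its log2 fold change was 0.45 ± 0.05 (SE, n = 3 each), adjusted p = 0.004 in edgeR's quasi-likelihood test. E2f2 had 141 and 172 CPM in KCl 1 and 2 and 148 CPM in KCl 4, against 101 and 108 CPM in control 1 and 2 and 109 CPM in control 4. Again the groups did not overlap, with KCl 2 highest. E2f2 had a log2 fold change of 0.54 ± 0.08 (SE, n = 3 each), adjusted p = 0.00809 in the same test. Taken apart, the E2f1 difference was 0.49 ± 0.07 in replicates 1 and 2 (SE, n = 2 per group, edgeR adjusted p = 0.0686) and 0.36 in replicate 4, and the E2f2 difference was 0.58 ± 0.12 in replicates 1 and 2 (SE, n = 2 per group, edgeR adjusted p = 0.0811) and 0.45 in replicate 4. E2f1 and E2f2 were also called by DESeq2 without replicate 4 (adjusted p = 0.00814 and 0.00701). In mm10, E2f1 (ENSMUSG00000027490) is at chr2:154559407-154569892, minus strand, and E2f2 (ENSMUSG00000018983) at chr4:136172394-136196057, plus strand.

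Tk1 and Pole2 rose with them. Tk1 had 57.0 and 70.4 CPM in KCl 1 and 2 and 65.5 CPM in KCl 4, against 41.9 and 51.8 CPM in control 1 and 2 and 45.3 CPM in control 4. Tk1 encodes cytosolic thymidine kinase, which makes dTMP by salvage, and its highest control library (control 2) stayed below its lowest KCl library (KCl 1). On the log2 scale it rose by 0.47 ± 0.11 (SE, n = 3 each), adjusted p = 0.0278 in edgeR's quasi-likelihood test. By replicate the Tk1 difference was 0.44 ± 0.16 in replicates 1 and 2 (SE, n = 2 per group, edgeR adjusted p = 0.152) and 0.53 in replicate 4. The adjusted p was 0.0802 without KCl 2, 0.0864 without KCl 4, 0.0812 without control 1 and 0.0896 without control 4, all in edgeR. Pole2 had 21.3 and 20.6 CPM in KCl 1 and 2 and 20.0 CPM in KCl 4, against 15.5 and 15.7 CPM in control 1 and 2 and 16.1 CPM in control 4. Pole2 encodes the second subunit of polymerase epsilon, which copies the leading strand, and averaged 20.7 ± 0.650 CPM in KCl and 15.8 ± 0.314 CPM in control (SD, n = 3 each). It rose by 0.39 ± 0.06 (SE, n = 3 each), adjusted p = 0.00818 on the log2 scale in that test, and by replicate it was 0.42 ± 0.10 in replicates 1 and 2 (SE, n = 2 per group, edgeR adjusted p = 0.0949) and 0.31 in replicate 4. Tk1 (ENSMUSG00000025574) is at chr11:117815526-117826092 and Pole2 (ENSMUSG00000020974) at chr12:69201773-69228195, both on the minus strand. All 44 members are protein-coding, and each count is of a gene, not of single exons.

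Gins3 was the member that fell. Gins3 had 16.0 and 16.5 CPM in KCl 1 and 2 and 17.1 CPM in KCl 4, against 21 and 19.5 CPM in control 1 and 2 and 18.9 CPM in control 4. Gins3 encodes a subunit of the GINS complex, and all KCl libraries lay below all control libraries. Its log2 fold change was -0.26 ± 0.07 (SE, n = 3 each), adjusted p = 0.0417 in edgeR's quasi-likelihood test. By replicate the Gins3 difference was -0.32 ± 0.11 in replicates 1 and 2 (SE, n = 2 per group, edgeR adjusted p = 0.139) and -0.14 in replicate 4. Leaving out any 1 of the 6 libraries took the edgeR adjusted p to between 0.0746 and 0.107, so the call rests on all of them. Gins3 (ENSMUSG00000031669) is at chr8:95633453-95645060, plus strand. The other GINS members, Gins1 (-0.08 ± 0.10) and Gins2 (-0.15 ± 0.06), had log2 fold changes below 0 and did not pass. Gins1 had -0.19 in replicates 1 and 2 and 0.16 in replicate 4, on opposite sides of 0, and Gins2 had -0.21 and -0.02.

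**Figure D2:**
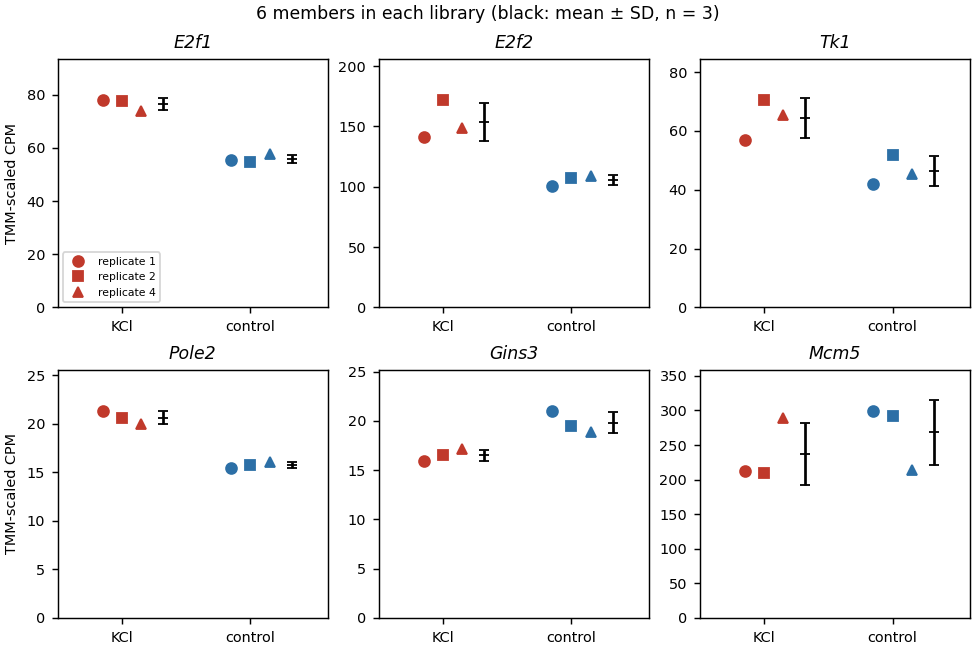
TMM-scaled CPM of 6 members in each library (circle, replicate 1; square, replicate 2; triangle, replicate 4), KCl left and control right, with mean ± SD of 3 libraries in black. For E2f1, E2f2, Tk1 and Pole2 all KCl points lie above all control points and for Gins3 below, while for Mcm5 the triangles lie on the other side of the groups, at 289 CPM in KCl 4 and 214 CPM in control 4.

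The remaining members formed a different pattern, in which replicates 1 and 2 and replicate 4 ran opposite ways. KCl 1 and 2 both lay below control 1 and 2 for 35 of 44 members (79.5%), against 32.4% of all tested genes, and both above for 4 members (9.09%, against 31.6%). KCl 4 lay above control 4 for 40 members (90.9%, against 51.2%). The crossing itself, KCl lower in replicates 1 and 2 and higher in replicate 4, occurred in 32 members (72.7%), against 13.8% of all genes. By role it took in 12 of 15 helicase and loading genes, 5 of 8 polymerase and primase genes, 8 of 10 clamp, loader and joining genes, 4 of 5 nucleotide genes and 3 of 6 control genes. The same crossing was seen in 25 of 61 further replication genes and 7 of 14 mitosis genes, both described below. It was thus not particular to the members. Genes of 1 programme vary together, so these counts are not independent observations.

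For most members the crossing placed each replicate 4 library with the other group. KCl 4 was nearer to the mean of control 1 and 2, and control 4 nearer to the mean of KCl 1 and 2, for 35 members (79.5%), against 39.9% of all genes. Because the mean of KCl 4 and control 4 was tied to that of the other 4 libraries, these 2 placements are not separate observations. Where 1 of them holds, the other largely follows. Summed over the members, the level was 3834 and 3832 CPM in KCl 1 and 2 and 4560 CPM in KCl 4, against 4615 and 4414 CPM in control 1 and 2 and 3719 CPM in control 4. The share of all counts taken by the members was 0.386% and 0.369% in KCl 1 and 2 and 0.459% in KCl 4, against 0.466% and 0.444% in control 1 and 2 and 0.373% in control 4. E2f1, E2f2, Tk1, Pole2, Gins3, Orc6, Prim1 and Ccne2 were the 8 members for which neither replicate 4 library was nearer to the other group.

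**Figure D3:**
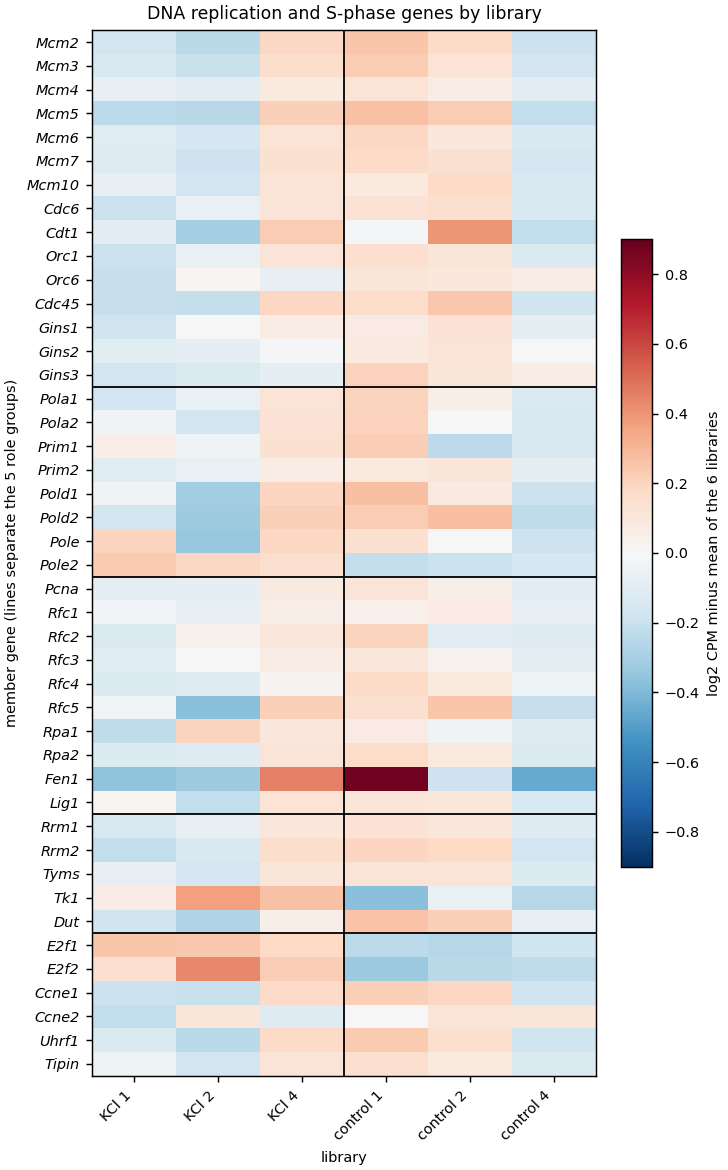
Log2 CPM of each member (rows, in 5 role groups) minus its mean over the 6 libraries (columns, KCl left of control); red is above and blue below that mean. Most rows are blue in KCl 1, KCl 2 and control 4 and red in KCl 4, control 1 and control 2, while E2f1, E2f2, Tk1 and Pole2 are red in all KCl libraries.

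Of the 15 helicase and loading genes 0 rose, 1 fell (Gins3) and 14 did not pass with all 6 libraries. Their median log2 fold change was -0.12, and -0.27 without replicate 4, with all 15 below 0 in each. Mcm5 had 212 and 209 CPM in KCl 1 and 2 and 289 CPM in KCl 4, against 299 and 292 CPM in control 1 and 2 and 214 CPM in control 4. KCl 1, KCl 2 and control 4 were alike and low, and KCl 4, control 1 and control 2 alike and high, so the groups overlapped. The Mcm5 log2 fold change with all 6 was -0.18 ± 0.18 (SE, n = 3 each), adjusted p = 0.584 by edgeR. It was -0.49 ± 0.07 in replicates 1 and 2 (SE, n = 2 per group, edgeR adjusted p = 0.068) and 0.43 in replicate 4. Mcm2 had 152 and 145 CPM in KCl 1 and 2 and 195 CPM in KCl 4, against 204 and 193 CPM in control 1 and 2 and 149 CPM in control 4. The log2 difference of Mcm2 was -0.42 ± 0.07 in replicates 1 and 2 (SE, n = 2 per group, edgeR adjusted p = 0.0726) and 0.38 in replicate 4, and Mcm3, Mcm4, Mcm6 and Mcm7 followed with -0.35, -0.18, -0.27 and -0.31 in replicates 1 and 2 and 0.33, 0.19, 0.26 and 0.29 in replicate 4. Mcm4 had 166 and 163 CPM in KCl 1 and 2 and 185 CPM in KCl 4, against 189.9 and 183 CPM in control 1 and 2 and 163 CPM in control 4. Mcm4 had the smallest difference of the ring subunits in each, and with all 6 libraries a log2 fold change of -0.06 ± 0.08 (SE, n = 3 each), adjusted p = 0.672 by edgeR. Cdc45, which joins the ring to make the active helicase, stood at -0.42 ± 0.08 (SE, n = 2 per group) and 0.37. The loading factor Cdt1 stood at -0.41 ± 0.16 (SE, n = 2 per group) and 0.45, with a wide spread in control (74.8 and 99.5 CPM in control 1 and 2). Cdc6, Orc1 and Mcm10 lay between -0.27 and -0.26 in replicates 1 and 2 and between 0.25 and 0.26 in replicate 4. Orc6 did not cross, at -0.20 and -0.14.

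Of the 8 polymerase and primase genes 1 rose (Pole2), 0 fell and 7 did not pass, with a median of -0.07, and -0.20 without replicate 4. Pold2 had 27.6 and 24.8 CPM in KCl 1 and 2 and 36.0 CPM in KCl 4, against 36.5 and 37.5 CPM in control 1 and 2 and 26.3 CPM in control 4. KCl 4 lay near control 1 and 2, and control 4 near KCl 1 and 2. With all 6 libraries its log2 fold change was -0.19 ± 0.19 (SE, n = 3 each), adjusted p = 0.596 by edgeR. Pold2, an accessory subunit of polymerase delta, had a log2 difference of -0.50 ± 0.10 in replicates 1 and 2 (SE, n = 2 per group, edgeR adjusted p = 0.0811) and 0.44 in replicate 4, and the catalytic gene Pold1 had -0.35 ± 0.13 (SE, n = 2 per group) and 0.39. Pola2 had 58.0 and 52.5 CPM in KCl 1 and 2 and 64.9 CPM in KCl 4, against 68.7 and 59.6 CPM in control 1 and 2 and 53.9 CPM in control 4. Pola2 encodes the regulatory subunit of polymerase alpha, which starts each new strand with primase, and its log2 fold change was -0.06 ± 0.12 (SE, n = 3 each), adjusted p = 0.777 by edgeR. The polymerase alpha genes Pola1 and Pola2 stood at -0.24 and -0.22 in replicates 1 and 2 and at 0.25 and 0.26 in replicate 4. Pole had 78.0 and 53.6 CPM in KCl 1 and 2 and 77.3 CPM in KCl 4, against 75.2 and 68.0 CPM in control 1 and 2 and 59.7 CPM in control 4. Pole, the catalytic subunit of polymerase epsilon, thus varied more among the KCl libraries than between groups, in contrast to its partner Pole2. Of the primase genes, Prim2 crossed (-0.19 and 0.16), and Prim1 did not separate in replicates 1 and 2 (0.0019 ± 0.17; SE, n = 2 per group).

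Of the 10 clamp, loader and joining genes 0 passed, with a median of -0.05, and -0.19 without replicate 4. Pcna had 176 and 177 CPM in KCl 1 and 2 and 198 CPM in KCl 4, against 203 and 194 CPM in control 1 and 2 and 175 CPM in control 4. For Pcna the log2 fold change was -0.06 ± 0.08 (SE, n = 3 each), adjusted p = 0.678 by edgeR. Pcna, the ring that holds polymerases on DNA, stood at -0.17 ± 0.07 (SE, n = 2 per group) in replicates 1 and 2 and 0.18 in replicate 4. The large clamp loader subunit Rfc1 (-0.11 and 0.14) differed less than the small subunit Rfc5 (-0.39 and 0.42), a contrast between genes that was not tested. Of the other small subunits, Rfc3 and Rfc4 had -0.13 and -0.26 in replicates 1 and 2 and 0.15 and 0.07 in replicate 4, and Rfc2, whose libraries overlapped in replicates 1 and 2, had -0.11 and 0.22. The DNA ligase gene Lig1 had -0.20 and 0.26, and Rpa2, of the complex that coats unwound DNA, had -0.25 and 0.24. Rpa1 had 119.8 and 162 CPM in KCl 1 and 2 and 151 CPM in KCl 4, against 148 and 137 CPM in control 1 and 2 and 129.5 CPM in control 4. Rpa1 encodes the largest subunit of that complex. Its libraries had no order by group, and its log2 fold change was 0.06 ± 0.12 (SE, n = 3 each), adjusted p = 0.774 by edgeR. Fen1 had 58.0 and 59.6 CPM in KCl 1 and 2 and 102 CPM in KCl 4, against 137 and 65.4 CPM in control 1 and 2 and 54.4 CPM in control 4. The Fen1 difference, -0.78 ± 0.35 (SE, n = 2 per group) in replicates 1 and 2 and 0.90 in replicate 4, had the widest error of the members, with control 1 far above control 2. With all 6 libraries the Fen1 log2 fold change was -0.23 ± 0.40 (SE, n = 3 each), adjusted p = 0.74 by edgeR. Fen1, the flap endonuclease that trims Okazaki fragments, shares 78.8% of its exon bases with the antisense gene Gm10143, which had 1 to 11 counts per library.

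Of the 5 nucleotide genes 1 rose (Tk1), 0 fell and 4 did not pass, with a median of -0.08, and -0.23 without replicate 4. Rrm2 had 197 and 208 CPM in KCl 1 and 2 and 256 CPM in KCl 4, against 263 and 259.9 CPM in control 1 and 2 and 203 CPM in control 4. KCl 4 sat with control 1 and 2, and control 4 with KCl 1 and 2. Its log2 difference was -0.37 ± 0.07 in replicates 1 and 2 (SE, n = 2 per group, edgeR adjusted p = 0.0789) and 0.33 in replicate 4, and that of Rrm1 was -0.23 ± 0.07 (SE, n = 2 per group) and 0.22. Rrm1 had 288 and 302 CPM in KCl 1 and 2 and 341 CPM in KCl 4, against 349 and 342 CPM in control 1 and 2 and 294 CPM in control 4. The log2 fold change of Rrm1 was -0.08 ± 0.09 (SE, n = 3 each), adjusted p = 0.636 by edgeR. Tyms, the thymidylate synthase that makes dTMP anew, had -0.23 and 0.23, so in replicates 1 and 2 it was below 0 where the salvage enzyme gene Tk1 was above it. Dut had 56.5 and 52.8 CPM in KCl 1 and 2 and 66.5 CPM in KCl 4, against 76.6 and 74.1 CPM in control 1 and 2 and 60.6 CPM in control 4. For Dut, the dUTPase that keeps uracil out of DNA, control 4 lay below control 1 and 2 and KCl 4 above KCl 1 and 2, with overlap between groups. Its log2 fold change, the lowest of the members, was -0.27 ± 0.12 (SE, n = 3 each), adjusted p = 0.188 by edgeR. By replicate it had -0.46 ± 0.08 (SE, n = 2 per group) and 0.13 in replicate 4.

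Of the 6 control genes 2 rose (E2f1 and E2f2), 0 fell and 4 did not pass. Ccne1 had 39.8 and 39.5 CPM in KCl 1 and 2 and 51.4 CPM in KCl 4, against 52.9 and 51.7 CPM in control 1 and 2 and 40.0 CPM in control 4. For Ccne1 the log2 fold change was -0.15 ± 0.15 (SE, n = 3 each), adjusted p = 0.595 by edgeR. Cyclin E1 (Ccne1) crossed, with -0.40 ± 0.08 (SE, n = 2 per group) in replicates 1 and 2 and 0.36 in replicate 4. Cyclin E2 (Ccne2) did not, at -0.11 and -0.22. Uhrf1, which brings the maintenance DNA methyltransferase to newly copied DNA, had -0.38 ± 0.08 (SE, n = 2 per group) and 0.35, and Tipin had -0.23 and 0.24. Tipin had 57.2 and 52.5 CPM in KCl 1 and 2 and 64.0 CPM in KCl 4, against 65.6 and 62.8 CPM in control 1 and 2 and 54.1 CPM in control 4. The log2 fold change of Tipin was -0.07 ± 0.10 (SE, n = 3 each), adjusted p = 0.683 by edgeR. The 6 members that DESeq2 called lower without replicate 4 were Mcm5 (adjusted p = 0.00157), Mcm2, Dut, Rrm2, Uhrf1 and Cdc45 (adjusted p = 0.0176 to 0.0496). None of these passed in edgeR on the same libraries.

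**Figure D4:**
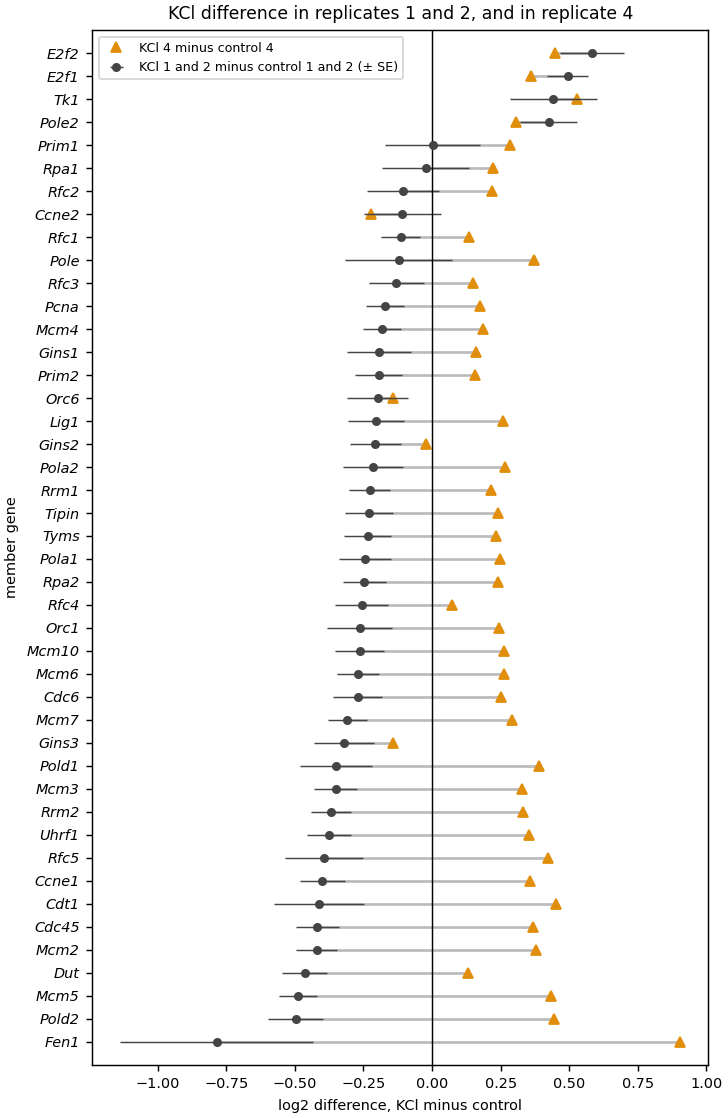
Log2 difference of KCl minus control for each member: dots show replicates 1 and 2 with SE (edgeR, n = 2 per group), triangles show KCl 4 minus control 4 (1 library each, no error). Dots run from -0.78 (Fen1) to 0.58 (E2f2), and for 32 members with KCl 1 and 2 below control the triangle lies on the other side of 0.

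The difference between replicate 4 and replicates 1 and 2 was tested in a model with both and their interaction. In edgeR's quasi-likelihood test 0 of 44 members passed, against 1 of 13326 genes (0.0075%), and 24 members (54.5%) had an unadjusted p under 0.05, against 11.2% of all genes. Limma-voom also called 0 members. The spread in this model comes from replicates 1 and 2 alone. The model also treats KCl 4 and control 4 as independent of the other libraries, which they were not. Its p-values, and the share of them under 0.05, therefore cannot be taken at face value. The members also vary together, so the 24 are not separate observations. For the members, the effect in replicate 4 minus that in replicates 1 and 2 had a median of 0.48 on the log2 scale, and was above 0 for 40 and below 0 for 4, against a median of -0.04 over all genes. It was 0.92 for Mcm5 and -0.13 for E2f1. Across the 44 members the median log2 fold change of KCl over control was -0.09 with all 6 libraries and -0.24 without replicate 4, against -0.00452 and -0.00277 over all genes.

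Some markers of cell types differed with the groups, and their part in these results was not tested. Neutrophil and precursor markers (8 of 8 tested, none at 0) summed to 12030 to 17270 CPM in KCl and 10670 to 11220 CPM in control. Macrophage and dendritic markers (6 of 6 tested) summed to 3229 to 3867 CPM in KCl and 4026 to 5190 CPM in control, and eosinophil, basophil and mast cell markers (4 of 4) to 1017 to 1194 CPM in KCl and 2167 to 2372 CPM in control. These sums do not describe each marker. With all 6 libraries, 4 macrophage and dendritic markers had log2 fold changes below 0 and 2 above, from -0.703 to 0.939. Of the eosinophil, basophil and mast cell markers, 3 lay below 0 and 1 above. By edgeR with all 6 libraries, Csf1r, Csf2ra, Lyz2, Ltf, Elane and Col1a1 rose, and Itgax, H2-Aa, Prg2, Epx and Mcpt8 fell. The 8 neutrophil and precursor markers did not share 1 pattern. For 4 of them, Elane, Ltf, Camp and S100a9, all KCl libraries lay above all control libraries, and for 0 below. The share without overlap was thus 50%, against 38.5% of all genes, counting both directions in each. The crossing described above was seen in 1, Prtn3, and its reverse in 1, Ly6g, while Mpo and S100a8 overlapped in replicates 1 and 2. Prtn3 had 195 and 149 CPM in KCl 1 and 2 and 282 CPM in KCl 4, against 325 and 228 CPM in control 1 and 2 and 171 CPM in control 4. Elane had 672 and 595 CPM in KCl 1 and 2 and 615 CPM in KCl 4, against 385 and 269.6 CPM in control 1 and 2 and 348 CPM in control 4. Both genes encode proteases of early granulocyte precursors. Ly6g had 37.3 and 66.7 CPM in KCl 1 and 2 and 26.8 CPM in KCl 4, against 22.2 and 33.1 CPM in control 1 and 2 and 49.9 CPM in control 4. The precursor markers Prtn3 and Elane thus differed in order, as did the late markers Ly6g and Ltf.

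A further 61 genes of replication and S-phase control were examined as a list. With all 6 libraries 1 rose, 8 fell and 52 did not pass in edgeR. The share that passed, 14.8%, was again below the 22.9% of all genes (12.4% higher, 10.5% lower). Without replicate 4, edgeR called 0 of 61, with 20 (32.8%) at an unadjusted p under 0.05, near the 29.8% of all genes, and limma-voom 0. DESeq2 without replicate 4 called 4 of them, Pold4, Dck, Shmt1 and Ccnd2. The 1 that rose was Dck, deoxycytidine kinase, another salvage enzyme like Tk1. Dck had 147 and 171 CPM in KCl 1 and 2 and 151 CPM in KCl 4, against 102 and 116 CPM in control 1 and 2 and 113 CPM in control 4. All KCl libraries lay above all control libraries. Its log2 fold change was 0.50 ± 0.08 (SE, n = 3 each), adjusted p = 0.00885 in edgeR's quasi-likelihood test. Without replicate 4 the Dck log2 fold change was 0.544 (edgeR adjusted p = 0.0821).

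Cyclin D genes, whose products release E2F from RB, were among those that fell. Ccnd2 had 258 and 245 CPM in KCl 1 and 2 and 252 CPM in KCl 4, against 395 and 329.8 CPM in control 1 and 2 and 359 CPM in control 4. The log2 fold change of Ccnd2 was -0.52 ± 0.07 (SE, n = 3 each), adjusted p = 0.00665 in edgeR's quasi-likelihood test, and that of Ccnd1 was -0.33 ± 0.08 (SE, n = 3 each), adjusted p = 0.0292. The other cyclin D gene, Ccnd3, did not pass (-0.17 ± 0.27). Cdkn1a, the p21 inhibitor of cyclin kinases, also fell, by edgeR with -0.25 ± 0.05 (SE, n = 3 each), adjusted p = 0.015. Pold4, the smallest subunit of polymerase delta, fell by 0.55 ± 0.08 on the log2 scale, and the origin and firing genes Orc2 and Mtbp, the histone chaperone gene Nasp and the deoxycytidylate deaminase gene Dctd had log2 fold changes of -0.23, -0.36, -0.27 and -0.57. Without replicate 4, Ccnd2, Ccnd1, Cdkn1a and Pold4 stood at -0.53, -0.312, -0.245 and -0.558. Orc2, Mtbp, Nasp and Dctd then stood at -0.25, -0.407, -0.297 and -0.635. The edgeR adjusted p of these genes without replicate 4 ran from 0.0821 (Ccnd2) to 0.157 (Dctd). Over the whole list the groups did not overlap for 12 of 61 genes (19.7%), against 38.5% of all tested genes. The edgeR adjusted p was over 0.05 without KCl 1, KCl 2, KCl 4, control 2 or control 4 for Dctd, without any of these but KCl 2 for Orc2, without KCl 2, KCl 4, control 2 or control 4 for Ccnd1, and without KCl 4 or control 4 for Cdkn1a. Of the other E2F genes measured, the activator gene E2f3 (-0.02 ± 0.10) and the repressor genes E2f4 (-0.07 ± 0.07), E2f7 (0.16 ± 0.12) and E2f8 (0.19 ± 0.11) did not pass, with edgeR adjusted p from 0.31 to 0.908. The partners of the E2F factors, Tfdp1 (-0.09 ± 0.10), Rb1 (-0.08 ± 0.16) and Rbl1 (0.07 ± 0.05), did not pass.

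Of 14 mitosis genes, 3 fell with all 6 libraries (Ccnb1, Cenpe and Cenpf), 0 rose and 11 did not pass. That share, all of it lower in KCl, was 21.4%, against 22.9% of all genes in either direction and 10.5% lower. All 14 had log2 fold changes below 0, with all 6 libraries and without replicate 4. The groups did not overlap for 5 of 14 (35.7%), all lower in KCl, against 38.5% of all genes in either direction. Without replicate 4 edgeR called 0, with 5 (35.7%) at an unadjusted p under 0.05, against 29.8% of all genes. Their summed level was 2361 and 2412 CPM in KCl 1 and 2 and 2592 CPM in KCl 4, against 2704 and 2616 CPM in control 1 and 2 and 2410 CPM in control 4. Some members share exon bases with a gene on the opposite strand that was also counted, as Gins2 does with Gse1 (67.3% of its exon bases), Ccne2 with Ints8 (17.4%), Rfc2 with Lat2 (15.1%) and Tk1 with Afmid (1.6%). The same holds outside the members for Orc2 with Nif3l1 (29.8%) and Ccnd1 with LTO1 (23.4%). The sources used here do not give the strand setting of the counting, and reads from such pairs cannot be told apart.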

How the data were processed

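Total RNA from 6 samples was sequenced after Trizol extraction, per the labels' protocols. The submitters' processing notes name mm10, edgeR, StringTie 1.3.3b and HISAT2 2.0.4. Which program made the counts, and with which strand setting, is not given in the sources used here. The authors deposited 1 table with a whole-number count and an FPKM value per gene and library. FPKM, scaled by the authors to gene length and depth, served only to describe levels and entered no test. Groups and replicate numbers came from the sample titles, which match the treatment labels.

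The test on the counts was that of edgeR 4.0.16 in R 4.3.3 (filterByExpr with minimum count 10 and minimum total 15, TMM scaling, robust quasi-likelihood, 2-sided, Benjamini-Hochberg, threshold 0.05), which left 13326 genes. A positive log2 fold change means higher in KCl. Differences between KCl 4 and control 4 are of log2(CPM + 0.5). Precision is set by depth, 14118724 to 21694831 counts per library, and by n. Alternatives were other scalings and filters, DESeq2 1.42.0, limma-voom (limma 3.58.1), a replicate block, replicate 4 as a batch term and libraries left out. The test was also run on simulated counts, drawn independently for each library. That check does not hold the dependence of replicate 4 on the other libraries, so it does not cover p-values that involve replicate 4.

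The members and lists were chosen with earlier results of these data known. Full values are given for members past the threshold, and for the highest FPKM and the largest and smallest fold change of each role group. Of other pathway genes, those past the threshold are named, and other examples were chosen after their values were seen. Of 19162 gene IDs, 19049 matched GENCODE M21, the source of mm10 (GRCm38) coordinates and exon overlaps. Promoters are from RefSeq (GRCm38.p6).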

Additional observations from a re-analysis of the deposited data

How the results depend on the processing

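RLE, upper-quartile and library-size scaling, both filters, DESeq2 and limma-voom on all 6 libraries kept the counts of changed genes, members and pathway genes within 1.5 times of 3057, 5 and 9. Gins3 was lost without a filter (edgeR adjusted p = 0.0535) and with DESeq2 (adjusted p = 0.1), and Dctd with DESeq2 (adjusted p = 0.0528). With the replicate block, 1678 genes, 3 members and 3 pathway genes passed (Gins3 and Pole2 lost, edgeR adjusted p = 0.154 and 0.0552), and with replicate 4 as a batch term 1573, 3 and 5. The numbers were not taken to pair the samples, but whether they do could not be decided. Deviations of same-numbered libraries from their group means correlated at 0.0227, -0.0555 and -0.889 for replicates 1, 2 and 4. Values that involve replicate 4 are not free, because its mean was tied to that of the other libraries. Among replicates 1 and 2, libraries of different numbers correlated at -0.314 (KCl 2 with control 1) and -0.305 (KCl 1 with control 2), below the same-number values. The group means behind all these correlations include replicate 4, so those among replicates 1 and 2 are not free of it either. With a library or replicate 4 left out, from 62 to 2851 genes, 0 to 4 members and 0 to 9 pathway genes passed in edgeR, the lowest values being those without replicate 4, and the members' median ran from -0.24 to -0.0461. Without KCl 4 alone 1505 genes passed, and without control 4 alone 1439, with 3 members in each. Without KCl 2 or control 1, 3 members passed as well. Without replicate 4 and chosen after the data were seen, DESeq2 called 1132 genes, 8 members and 4 pathway genes, and limma-voom 49, 0 and 0 (24 members and 19 pathway genes, 54.5% and 31.1%, at an unadjusted p under 0.05, against 29.8% of all genes), with a members' median of -0.239. The difference between replicate 4 and replicates 1 and 2 gave 3 genes with library size only and 4 with no filter, against 1, and 0 members in each (24 members, 54.5%, at an unadjusted p under 0.05 by edgeR with the settings of the report, against 11.2% of all genes). All p-values of that difference are limited by the dependence of replicate 4 on the other libraries. With the shorter letters TTCCCGC and TTGGCGC, 19 of 36 members held a match, against 7.79% of genes. The cause of these changes was not tested. Precision is limited by depth and by the 2 or 3 libraries per group.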
